A study of Mus musculus with 4 samples.

Results

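Small leucine-rich proteoglycans are secreted proteins of the connective tissue matrix, built around a chain of leucine-rich repeats that bind collagen. The 10 genes described here are Dcn, Bgn, Aspn, Ecm2, Lum, Fmod, Prelp, Omd, Ogn and Podn, which were read from the deposited tables by their exact gene symbol. They were measured by 21 of 45037 probe sets and make up 10 of 19761 genes with a symbol of their own. The arrays compared cells cultured from C57BL/6J mouse spleen that pile up into compact colonies (SACCs) with adherent spleen cells that stayed in a monolayer, the controls. Pieces of spleen had been kept in RPMI medium with serum, and the colony cells of the first SACC array were moved to a serum-free medium for embryonic stem (ES) cells once colonies began to form. The second SACC array and both control arrays came from plain medium. The labels name a control array as the comparison partner of each SACC array, which gives an ES pair and a plain pair of 1 array against 1, so in the ES pair the effects of cell state and medium cannot be told apart. The labels give neither age nor sex, and nothing in them says that the 4 RNA samples were taken from different mice or wells. The p-values therefore measure only how far these samples differ, and part of that spread may be technical. Mean ratios over both pairs include the SACC array in ES medium. The difference in medium can therefore enter these means and their standard errors as well.

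Members of this family coat collagen fibrils and set their diameter and spacing, and several bind transforming growth factor beta or receptors at the cell surface. Most carry sulfated sugar chains, of chondroitin or dermatan sulfate on decorin and biglycan and of keratan sulfate on lumican and fibromodulin. In lymphoid organs they are regarded mainly as products of the fibroblastic stroma. Which cells made them in these cultures was not tested. Decorin, biglycan and asporin belong to class I, to which the matrix protein Ecm2 is related, lumican, fibromodulin, Prelp and osteomodulin to class II, osteoglycin to class III and podocan to class V.

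All values are log2 expression of a probe set as deposited, and a ratio is the SACC value minus the control value of the same pair, so 1 on this scale is a doubling in SACCs. Array medians were 4.52 and 4.35 on the SACC arrays of the ES and plain pair, and 4.59 and 4.34 on their controls. The array gives no counted depth, and the number of arrays limits the precision. Levels of different probe sets were not set against each other, since each binds its target with its own strength. The summed signals of marker lists, given further on, do add different probe sets, and the brightest weigh most in them. The labels name a tissue and a growth form but no cell type. None of 10 fibroblast markers and none of 12 macrophage markers lay below the median on all 4 arrays.

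Of the 10 genes, 6 were higher in SACCs in both pairs, namely Dcn, Bgn, Aspn, Lum, Fmod and Ogn. Taking for each gene its probe set with the highest mean, 30.4% of all genes were higher in both pairs. At least 2-fold higher in both pairs were 5 of the 10, Dcn, Aspn, Lum, Fmod and Ogn, against a background of 3.38% of all genes. Among the above-median probe sets, 4.37% passed the same 2-fold rule. In the ES pair 5 genes were at least 2-fold higher and 1, Prelp, at least 2-fold lower, against 6.51% and 4.08% of all genes. In the plain pair 6 genes were at least 2-fold higher, with Bgn added, and 0 lower, against 6.01% and 5.19%. None of the 10 was at least 2-fold lower in both pairs, which 2.68% of genes were. Both SACC arrays lay above both control arrays for 4 genes, Dcn, Bgn, Aspn and Lum, against 18.3% of all genes and 20.9% of above-median probe sets. Here and below, such comparisons run across the pairs, whose values appear to be normalized separately. Omd and Ecm2, lower in both pairs like 34.7% of genes, stayed below the median on every array, and Prelp and Podn did not move in the same direction in both pairs. Over the 10 genes the median ratio was 1.03 for the ES pair and 1.13 for the plain pair, beside -0.01 and -0.02 over all genes. Fewer cells of a type and less RNA per cell cannot be told apart in these cultures.

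None of the 21 probe sets passed an adjusted p of 0.05 in limma's fit with a term for the pair, where 0.642% of all probe sets were called higher and 0.662% lower in SACCs. At an unadjusted p under 0.05, limma gave 15 of the 21 higher and 0 lower, against 9.47% and 7.42% of all probe sets. These 15 were all the probe sets of the 6 genes just named. The lowest adjusted p among the 21 was 0.0508, for an Ogn probe set, and the lowest of any probe set on the array was 0.0476. With the 4 arrays quantile normalized together, 11 of the 21 passed as higher, in Dcn, Bgn, Lum, Fmod and Ogn, against 2.38% of all probe sets called higher there. With robust eBayes it was 12, in the same 5 genes, against 3.26%. With a trend in eBayes it was 4 of 21 against 1.03%, and with dim probe sets removed 4 of 18 against 3.16%. Aspn passed under none of the alternatives.

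**Figure D1:**
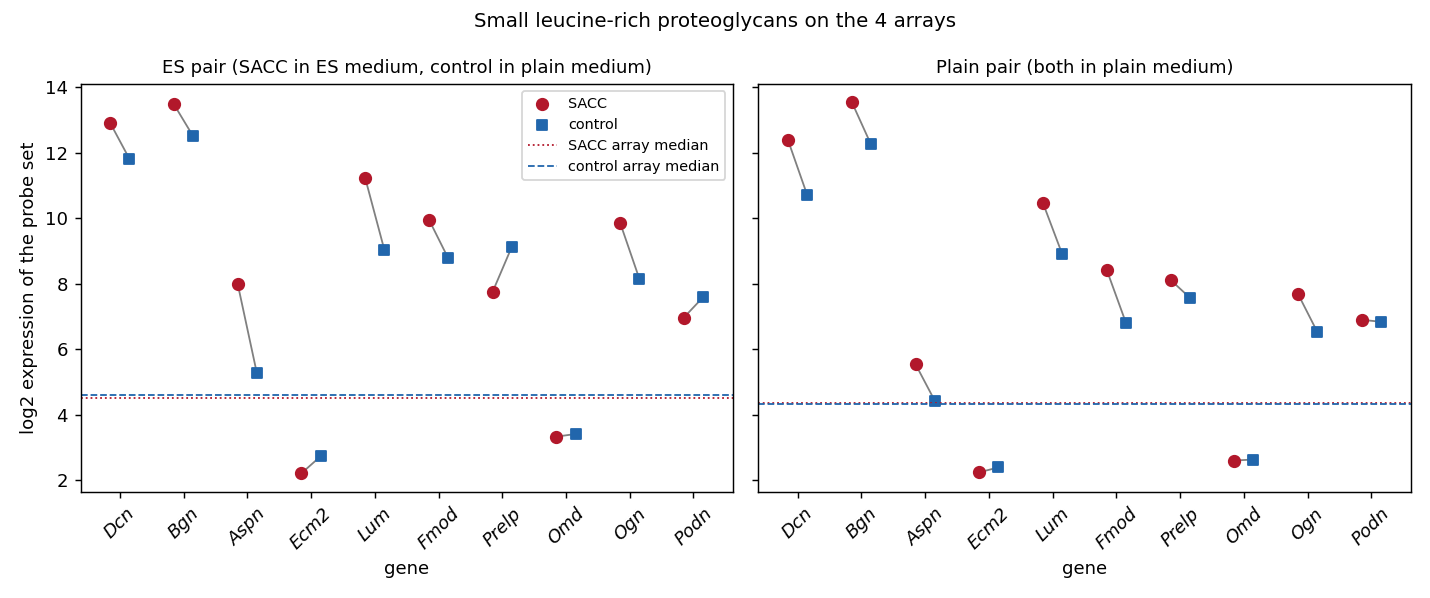
Log2 expression of the highest probe set of each gene on the SACC array (red circles) and control array (blue squares) of the ES pair (left) and the plain pair (right), with 1 array for each point and dotted and dashed lines at the array medians. Dcn, Bgn, Aspn, Lum, Fmod and Ogn lie higher on the SACC array in both panels, and Ecm2 and Omd lie below the medians throughout.

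Decorin, Dcn, binds type I collagen and is an antagonist of several receptor tyrosine kinases. Its probe set read 12.91 and 12.38 on the SACC arrays of the ES and plain pair, against 11.82 and 10.71 on the controls. Both SACC values lay above both control values. The gene was 2.13-fold higher in the ES pair and 3.18-fold in the plain pair, with a mean ratio of 1.38 ± 0.21 (SE, n = 2 pairs) and a limma adjusted p of 0.0808.

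Biglycan, Bgn, the closest relative of decorin, can be released from the matrix and is then a ligand of the Toll-like receptors Tlr2 and Tlr4 on macrophages. Its highest probe set read 13.48 and 13.55 in SACCs and 12.51 and 12.26 in controls, without overlap between the groups. The SACC values lay close to the array maxima of 14.16 and 14.14. Its ratios were 0.97 and 1.29, with a mean of 1.13 ± 0.18 (SE, n = 2 pairs) and a limma adjusted p of 0.0815. The other probe sets gave ratios of 1 and 1.07 and of 0.88 and 0.8, so all 3 pointed the same way.

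Asporin, Aspn, is a class I member named for its run of aspartate residues, and it is abundant in periodontal ligament and other dense connective tissue. It had the highest ES pair ratio of the 10 genes. Its main probe set read 7.99 and 5.54 in SACCs, against 5.27 and 4.43 in controls, so the ES SACC value stood apart and the other SACC value exceeded the higher control by little. The control values lay only 0.68 and 0.09 above the medians of their arrays in the ES and plain pair. The ratios of 2.72 and 1.11 correspond to 6.59-fold and 2.16-fold higher levels. The mean was 1.92 ± 0.43 (SE, n = 2 pairs) with a limma adjusted p of 0.15, and its standard error was more than that of any of the other 5 higher genes. The second probe set gave 2.88 and 1.08, with control values of 3.43 and 3.91 that lay below the array medians.

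Lumican, Lum, a keratan sulfate proteoglycan best known for keeping the cornea clear in mice, read 11.23 and 10.46 in SACCs and 9.04 and 8.91 in controls. Both SACC arrays were above both controls. This is 4.56-fold higher in the ES pair and 2.93-fold in the plain pair, with a mean ratio of 1.87 ± 0.22 (SE, n = 2 pairs) and a limma adjusted p of 0.058. Higher ratios than these were found for 0.695% of all probe sets in the ES pair, with 1.87% for the plain pair. Fibromodulin, Fmod, which shares the collagen binding of lumican and is prominent in tendon, had 6 probe sets. Its highest read 9.96 and 8.42 in SACCs, against 8.79 and 6.81 in controls, so the plain SACC value lay below the ES control, although each SACC was higher than its own partner.

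Each of the 6 Fmod probe sets was higher in SACCs in each of the 2 pairs, with ratios from 0.98 to 1.66 in the ES pair and from 0.94 to 1.61 in the plain pair. The main probe set gave a mean ratio of 1.39 ± 0.19 (SE, n = 2 pairs) and a limma adjusted p of 0.069. It and 4 others carry the suffix by which Affymetrix marks probes that may bind other transcripts. The only Fmod probe set without this mark gave 1.66 and 0.98, just under 2-fold in the plain pair.

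Osteoglycin, Ogn, also called mimecan, is a class III member of bone, vessel wall and other connective tissues. Its brighter probe set read 9.86 and 7.69 in SACCs, against 8.16 and 6.54 in controls, and the second read 7.78 in plain SACCs and 7.67 in ES SACCs, against 6.31 and 5.94 in their controls. The groups overlapped in the first probe set and not in the second. The second gave ratios of 1.47 and 1.73 in the plain and ES pair and the lowest adjusted p of the family. The first had a mean ratio of 1.42 ± 0.21 (SE, n = 2 pairs).

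**Figure D2:**
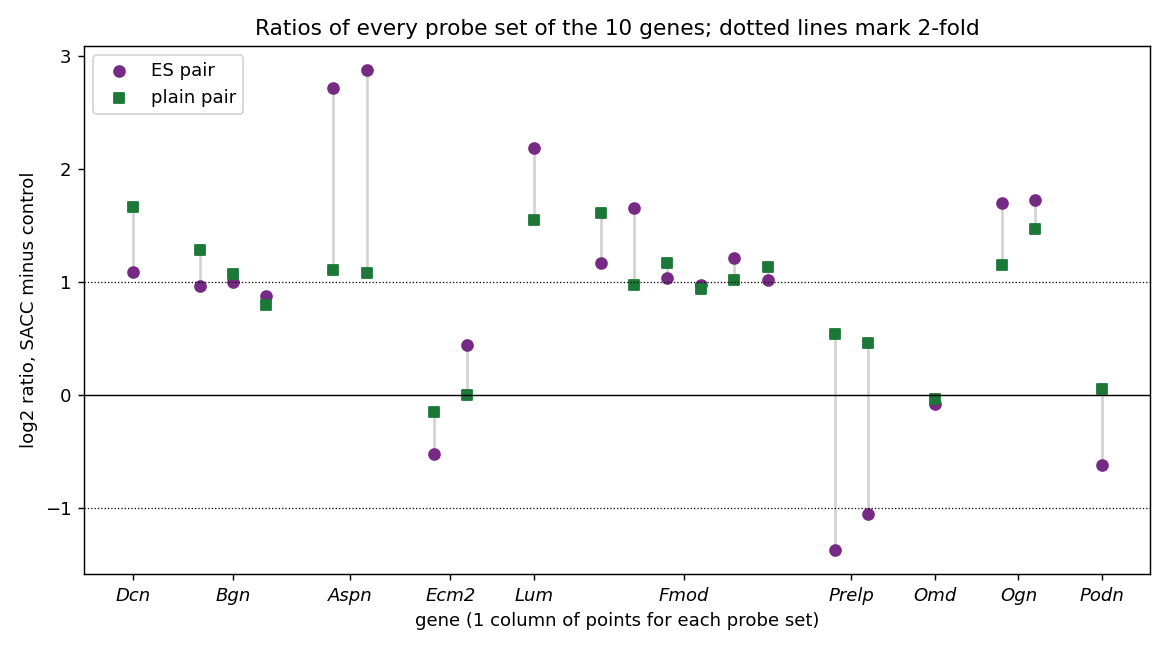
Log2 ratio of SACC over control for each of the 21 probe sets, grouped by gene, in the ES pair (purple circles) and the plain pair (green squares), with dotted lines at 2-fold. Aspn is higher by 2.72 and 2.88 in the ES pair, and both Prelp probe sets lie below 0 in the ES pair and above 0 in the plain pair.

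Prelp, a heparin-binding member that anchors basement membranes to the underlying collagen, was the only gene of the family at least 2-fold lower in SACCs in a pair. Its main probe set read 7.76 in SACCs and 9.13 in controls of the ES pair, and 8.12 in SACCs and 7.58 in controls of the plain pair. The ratios were -1.37 and 0.54, and the second probe set gave -1.05 and 0.46. A ratio at least 2-fold lower in the ES pair together with one above 0 in the plain pair was found in 0.243% of all genes. That rule has the shape of Prelp's own ratios, and all genes include dim ones, so the share does not measure how unusual Prelp is. Relative to each array's median, the main probe set stood at 3.24 and 3.77 in SACCs and at 4.54 and 3.24 in controls, so the control of the ES pair was the highest of the 4. The mean ratio over both pairs was -0.42 ± 0.5 (SE, n = 2 pairs) with a limma adjusted p of 0.741, and without control replicate 1 it was 0.36. Podocan, Podn, a collagen-binding class V member, read 6.97 and 6.9 in SACCs and 7.59 and 6.84 in controls. Here too the control of the ES pair was the highest array, with ratios of -0.62 and 0.06. With 1 array a group in each pair, neither difference between the pairs could be tested.

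The other genes, Omd and Ecm2, were dim. Osteomodulin, Omd, a keratan sulfate proteoglycan of mineralised tissue, read 3.33 and 2.6 in SACCs and 3.41 and 2.63 in controls. Ecm2 read 2.21 and 2.24 in SACCs and 2.73 and 2.39 in controls with its main probe set, and its second probe set pointed the other way in the ES pair (0.45) and gave 0 in the plain pair. All 3 probe sets lay below the median on every array. Such dim probe sets give no usable level, and no direction is drawn from the ratios of these genes.

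The family lies in runs of neighbouring genes in the mouse genome, and members of the same run differed in ratio or in having a usable signal. In RefSeq's order of protein-coding genes, Ecm2, Aspn, Omd and Ogn follow each other on chromosome 13, with Aspn and Ogn at least 2-fold higher in SACCs in both pairs and Ecm2 and Omd below the median on every array. Dcn and Lum are followed on chromosome 10 by Kera and Epyc, the keratocan and epiphycan genes, which also stayed below the median on all 4 arrays. Prelp and Fmod are neighbours on chromosome 1, next to the opticin gene Optc, and had ratios of -1.37 and 1.17 in the ES pair, while both were higher in the plain pair, by 0.54 and 1.61. Bgn on chromosome X and Podn on chromosome 4 have no other member of the family next to them.

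The starts of the adjoining genes on chromosomes 13 and 1 are shown because these runs hold genes with different ratios, or with and without a usable signal. RefSeq's promoter table (GRCm38.p6), with 250 bases before to 50 after each start, held 8 of the 10 genes, and the others were Dcn and Lum. The windows are chr13:49504560-49504859 for Ecm2, chr13:49544193-49544492 for Aspn, chr13:49582212-49582511 for Omd and chr13:49607765-49608064 for Ogn, all on the plus strand. Those on chromosome 1 are chr1:133921352-133921651 on the minus strand for Prelp and chr1:134037004-134037303 on the plus strand for Fmod. Capitals mark matches, on either strand, to the TATA box TATAAA, the AP-1 site TGANTCA, the GC box GGGCGG or the TEAD site GGAATG.
Ecm2: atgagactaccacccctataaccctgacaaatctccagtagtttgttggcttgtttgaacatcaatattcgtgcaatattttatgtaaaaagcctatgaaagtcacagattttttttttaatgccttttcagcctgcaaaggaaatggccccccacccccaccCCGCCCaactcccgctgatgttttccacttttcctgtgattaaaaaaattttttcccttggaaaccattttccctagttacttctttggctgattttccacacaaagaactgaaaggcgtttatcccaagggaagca
Aspn: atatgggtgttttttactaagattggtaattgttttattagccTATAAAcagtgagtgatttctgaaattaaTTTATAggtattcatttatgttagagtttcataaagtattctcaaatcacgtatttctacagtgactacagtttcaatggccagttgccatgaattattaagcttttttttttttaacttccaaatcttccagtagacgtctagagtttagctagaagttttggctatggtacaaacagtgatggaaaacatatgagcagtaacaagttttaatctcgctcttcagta
Omd: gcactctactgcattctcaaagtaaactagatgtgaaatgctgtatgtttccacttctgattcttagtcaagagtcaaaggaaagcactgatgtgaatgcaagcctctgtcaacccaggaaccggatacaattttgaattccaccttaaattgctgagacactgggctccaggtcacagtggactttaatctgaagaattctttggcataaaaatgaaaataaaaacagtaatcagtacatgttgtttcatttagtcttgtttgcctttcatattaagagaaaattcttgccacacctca
Ogn: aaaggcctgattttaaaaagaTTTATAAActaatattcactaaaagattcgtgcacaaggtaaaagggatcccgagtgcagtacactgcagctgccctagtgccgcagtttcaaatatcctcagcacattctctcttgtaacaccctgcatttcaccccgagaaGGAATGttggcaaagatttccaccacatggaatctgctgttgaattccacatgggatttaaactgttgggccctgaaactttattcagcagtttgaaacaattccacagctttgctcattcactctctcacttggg
Prelp: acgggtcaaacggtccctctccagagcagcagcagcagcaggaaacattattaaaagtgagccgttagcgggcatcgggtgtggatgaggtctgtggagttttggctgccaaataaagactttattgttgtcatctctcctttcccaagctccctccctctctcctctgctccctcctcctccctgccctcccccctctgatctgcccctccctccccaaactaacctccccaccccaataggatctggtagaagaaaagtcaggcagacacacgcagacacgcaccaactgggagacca
Fmod: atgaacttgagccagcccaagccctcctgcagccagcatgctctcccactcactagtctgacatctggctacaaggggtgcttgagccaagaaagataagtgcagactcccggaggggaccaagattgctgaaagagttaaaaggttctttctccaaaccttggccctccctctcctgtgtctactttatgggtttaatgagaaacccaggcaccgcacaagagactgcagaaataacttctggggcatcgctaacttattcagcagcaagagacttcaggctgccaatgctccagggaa

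The 2 chromosome 13 genes that were higher in SACCs both hold TATAAA, although far from the start. In Aspn it begins 207 and 178 bases upstream, and in Ogn overlapping matches on opposite strands begin 229 and 227 bases upstream. Ogn also holds GGAATG 86 bases upstream. Ecm2 holds GGGCGG 87 bases upstream, and the windows of Omd, Prelp and Fmod hold none of the 4 motifs. Outside these runs, Bgn holds GGGCGG 34, 10 and 6 bases upstream, and a Podn window holds it 202 and 70 bases upstream. Of the other higher genes, Bgn and Fmod thus hold no TATAAA, and Dcn and Lum have no window. Of 32851 mouse promoter windows of the same length, TATAAA is in 13.6%, TGANTCA in 7.81%, GGGCGG in 35.7% and GGAATG in 14.7%. These matches describe the letters only and say nothing of binding in these cells.

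**Figure D3:**
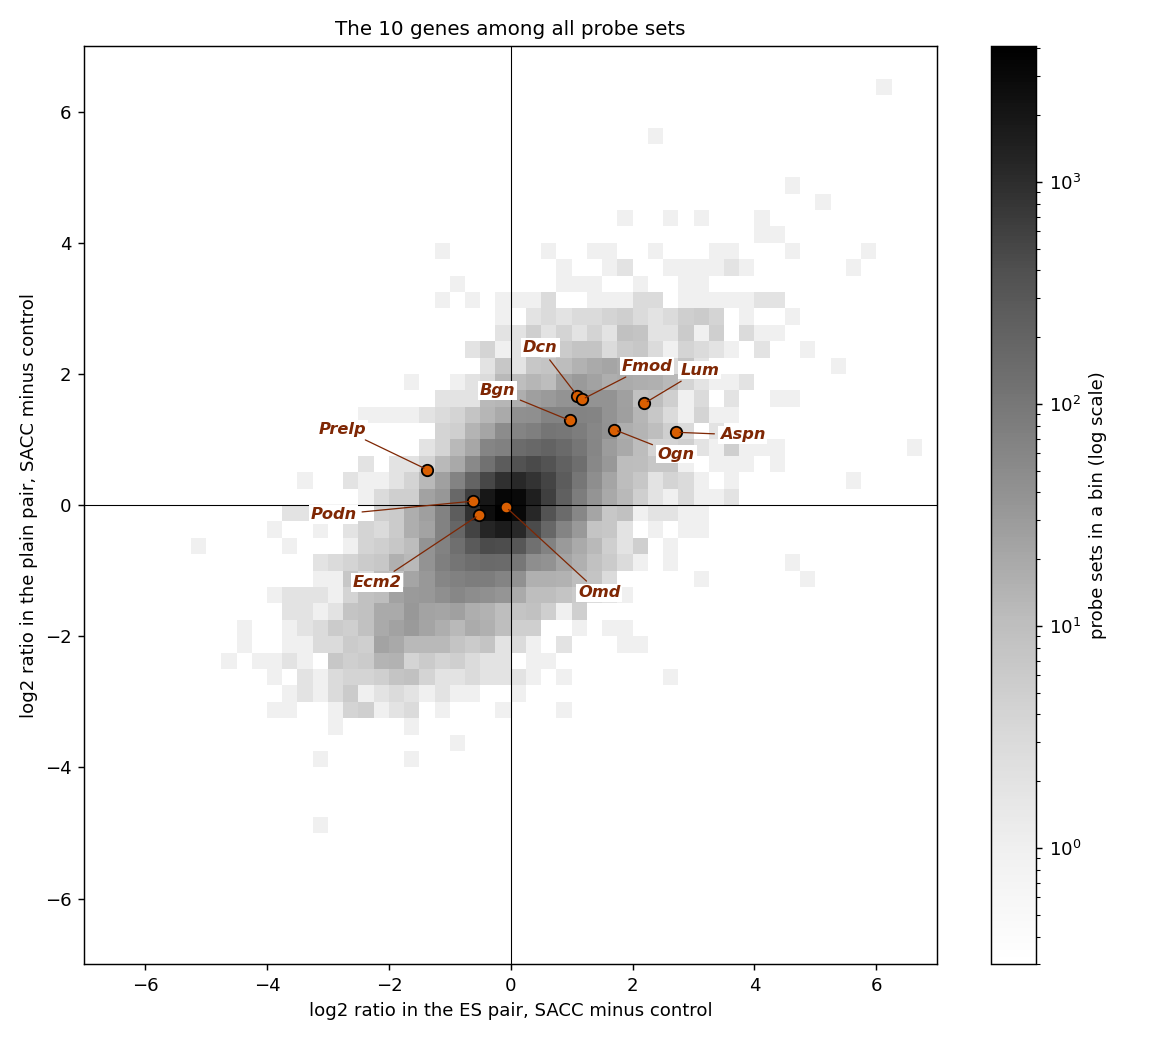
Log2 ratio of the ES pair (x axis) against that of the plain pair (y axis) for all 45037 probe sets, as counts in square bins on a log scale, with the highest probe set of each of the 10 genes in orange. Dcn, Bgn, Aspn, Lum, Fmod and Ogn lie in the upper right, while Omd, Ecm2 and Podn lie near the centre and Prelp in the upper left.

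Collagens, to whose fibrils these proteins bind, were mostly higher too. Of 13 fibrillar and fibril-associated collagen genes, 12 were higher in both pairs, their medians being 1.51 and 1.29, and 2 passed the test. These were Col1a1, which encodes the main type I chain (2.3 ± 0.16, SE, n = 2 pairs, limma adjusted p 0.0476), and Col6a1, of the beaded microfibrils to which decorin and biglycan bind (1.58 ± 0.16, limma adjusted p 0.0495). Among the 12 higher genes, Col5a3, Col12a1 and Col14a1 each had 1 probe set with a mean ratio of the opposite sign. Col11a1, which nucleates thin fibrils, had ratios of 3.59 and 0.95, wide apart between the pairs like those of Aspn. Col3a1, the main collagen of reticular fibres, had 0.87 and 1.73, larger in the plain pair like those of Dcn. Its SACC values of 14.01 and 13.86 lay close to the array maxima of 14.16 and 14.14.

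Each of the 10 fibroblast markers was higher in SACCs in each of the 2 pairs, with ratios from 0.51 to 2.32 in the ES pair and from 0.54 to 2.28 in the plain pair. The summed signal of the list was 15.91 and 15.66 (log2) in SACCs and 14.78 and 14.11 in controls, and Col1a1, Postn, Fap and Col6a1 rose past the test. Col1a1, Col1a2, Col3a1 and Col6a1 are also among the collagens above, so these lists are not separate. The 12 macrophage markers were all lower in each of the 2 pairs (medians -1.96 and -1.7), and had summed signals of 14.5 and 14.86 in SACCs and 16.03 and 16.11 in controls. Of these, 5 fell, among them Csf1r, the growth factor receptor of macrophages (-1.86 and -1.64, limma adjusted p 0.0482), and Ptprc, the common leukocyte antigen (-2.08 and -2.04, limma adjusted p 0.0476). The 6 higher proteoglycan genes had ratios inside the range of the fibroblast markers, other than Aspn above it in the ES pair. Prelp and Podn lay below that range in the ES pair, and Podn in the plain pair too. The part of these marker differences in the proteoglycan ratios was not tested.

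Of 5 tendon markers, 4 were higher in both pairs, but Scx, Tnmd and Thbs4 were below the median on every array. The bright marker Tnc, tenascin C, had ratios of 0.21 and 1.63, and Mkx had 2.23 and 3.16 from control values of 2.76 and 2.28 below the medians. Of 8 bone and cartilage markers, 3 were higher and 1 lower in both pairs, 3 were below the median on every array, and none passed the test. For Runx2, among the higher ones, 2 of 3 probe sets had a mean ratio of the opposite sign. Of 9 smooth muscle and pericyte markers, 7 were higher in both pairs and 0 lower. Rgs5, of pericytes, rose (2.98 ± 0.26, SE, n = 2 pairs, limma adjusted p 0.0476), with control values of 3.63, below the array median, and 4.47, close to it. The pericyte markers Cspg4 and Mcam did not follow, with ratios of 0.04 and -0.4 and of 0.8 and -0.41. Of 9 mesothelial markers, 6 were higher and 2 lower in both pairs, and 4 were below the median on every array. Wt1 had ratios of 3.84 and 2.63, with an ES control of 4.44 below the array median, and Msln had -0.93 and -0.03.

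Endothelial markers were higher in both pairs for 5 of 9 genes and lower for 2, and lymphocyte markers higher for 3 of 9 and lower for 5. In each of these lists 3 markers were dim, never reaching an array's median. Pecam1 and Tie1 of the higher endothelial genes and Cd79a and Cd3d of the higher lymphocyte genes were among them. Cdh5 and Egfl7, also higher, each had 1 probe set whose mean ratio lay below 0. Vwf, of the lower endothelial genes, had ratios of -0.88 and -2.36, with SACC values of 4.4 and 3.67 below the medians. Neutrophil markers differed between the pairs. Their summed signal was 9.85 in SACCs and 7.29 in controls of the ES pair, and 11.29 in SACCs and 12.01 in controls of the plain pair. S100a9 had ratios of 4.82 and -1.04, S100a8 of 3.13 and -0.49 and Ngp of 2.08 and -2.14. Of the 7 measured, 1 was higher in both pairs and 0 were lower, and that gene, Camp, rose (1.58 ± 0.16, SE, n = 2 pairs, limma adjusted p 0.0487). Prelp and Podn changed sign the other way round, below 0 in the ES pair and above 0 in the plain pair, and the part of neutrophil RNA in this was not tested.

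The enzymes that build the sugar chains were mixed. Of 23 genes of chondroitin and dermatan sulfate synthesis, 13 were higher and 5 lower in both pairs (medians 0.35 and 0.11), and 1 passed the test. That gene, Chst15, which adds a further sulfate to chondroitin sulfate, read 8.69 and 7.03 in SACCs and 6.37 and 5.11 in controls, a 4.35-fold rise (2.12 ± 0.19, SE, n = 2 pairs, limma adjusted p 0.0476). Csgalnact1, which starts the chondroitin chain, had ratios of 1.28 and 2.7. Of 12 genes of keratan sulfate synthesis, 6 were higher and 3 lower in both pairs and none passed the test. The keratan sulfate sulfotransferase Chst1 had ratios of 2.34 and 0.9, and the sialyltransferase St3gal2 had 1.5 and 1.11. Among the lower genes, B3gnt2 had -0.77 and -0.89.

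Proteases that cut or mature these proteoglycans were higher for 8 of 12 genes and lower for 2 (medians 2.04 and 1.23), and 4 rose. Mmp3, stromelysin, which can cleave decorin, read 11.91 and 11.12 in SACCs and 8.08 and 8.06 in controls, 10.9-fold higher (3.44 ± 0.25, SE, n = 2 pairs, limma adjusted p 0.0476). Mmp2, a gelatinase, was 9.65-fold higher (3.27 ± 0.33, limma adjusted p 0.0487) and the aggrecanase Adamts4 was 6.17-fold higher (2.62 ± 0.2, limma adjusted p 0.0476). Bmp1, which removes the propeptides of biglycan, osteoglycin and the fibrillar collagens, was 4.06-fold higher (2.02 ± 0.16, limma adjusted p 0.0476), although 1 of its 3 probe sets had a mean ratio below 0. Mmp13, a collagenase, was the exception with the largest lower ratios, -0.94 and -3.58.

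Receptors of the secreted proteins were more often lower. Of 17 receptor genes, 9 were lower and 5 higher in both pairs (medians -0.32 and -0.28), and none passed the test. The biglycan receptor Tlr4 had ratios of -1.12 and -0.99, although 1 of its 4 probe sets had a mean ratio above 0. Tlr2, another, had -1.07 and -0.25. Their partner Cd14 had -1.38 and -1.61 and is itself among the 12 macrophage markers, and the part of macrophage RNA in these ratios was not tested. Egfr, a receptor bound by decorin, read 9.38 and 9.99 in SACCs and 8.92 and 7.27 in controls, and 1 of its 5 probe sets had a mean ratio of the opposite sign. Met, another receptor of the list, went the other way, with ratios of -0.12 and -2.59. Among 14 growth factor genes whose products these proteoglycans can bind or act with, 6 were higher and 4 lower in both pairs. Pdgfb, a growth factor for mesenchymal cells, fell (-1.98 ± 0.17, SE, n = 2 pairs, limma adjusted p 0.0476), and Tgfb3, a ligand bound by decorin and fibromodulin, had ratios of 2.36 and 1.47.

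**Figure D4:**
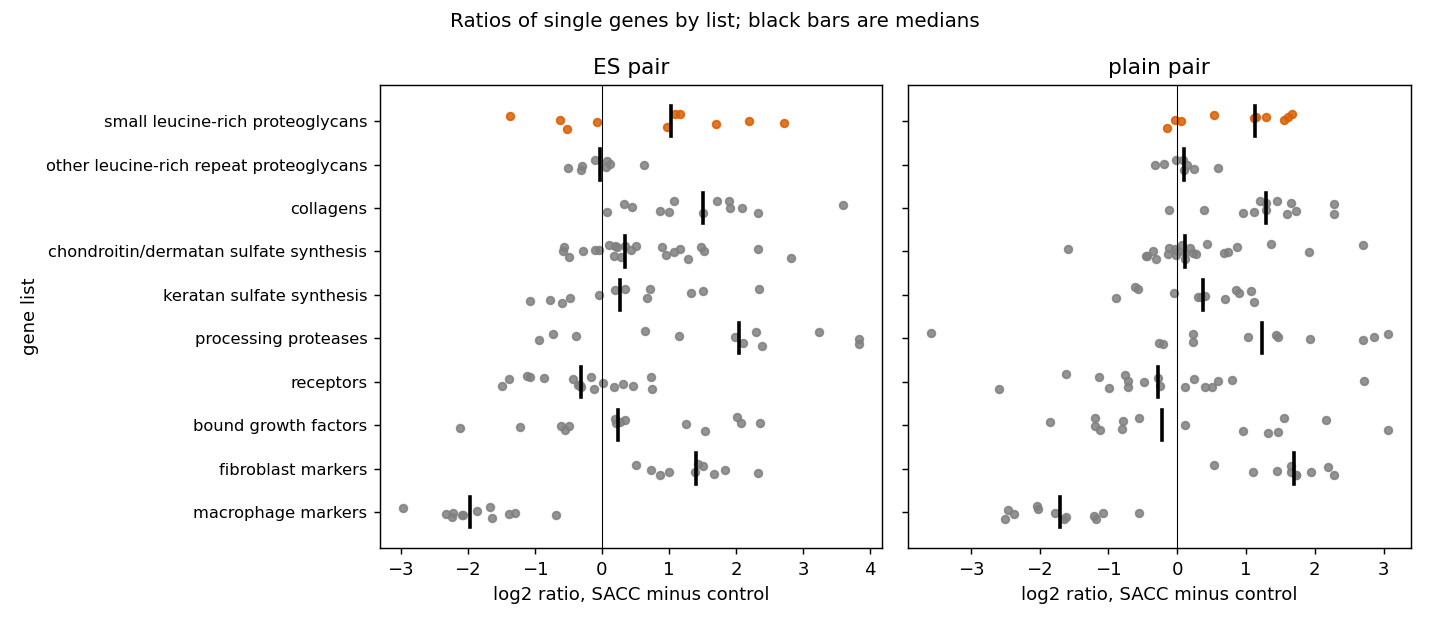
Log2 ratio of SACC over control for each gene of the lists in the ES pair (left) and the plain pair (right), with the 10 small leucine-rich proteoglycans in orange and a black bar at each list's median. The medians of the proteoglycans are 1.03 and 1.13, those of the collagens 1.51 and 1.29, and those of the macrophage markers -1.96 and -1.7.

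Other genes of the small leucine-rich repeat proteoglycan family gave little signal. Of 8 measured, 5 were below the median on every array and none passed the test, with medians of -0.02 and 0.1. Tsku, tsukushi, which binds bone morphogenetic proteins, was the only such gene well above the array medians, at 7.42 and 6.89 in SACCs and 6.79 and 6.29 in controls, with ratios of 0.63 and 0.6. The cartilage protein chondroadherin, Chad, had -0.11 and -0.33, and its relative Chadl -0.3 and -0.19. Nyctalopin, Nyx, had -0.5 and 0.09, Nepn -0.32 and -0.02, Optc 0.06 and 0.1, Kera 0.08 and 0.14 and Epyc 0.12 and 0.25. Of 12 large and other proteoglycans, 2 were higher and 7 lower in both pairs, and 7 were below the median on every array. Srgn, serglycin, the proteoglycan of blood cell granules, read 10.59 and 10.65 in SACCs and 11.66 and 11.36 in controls. Vcan, versican, the large chondroitin sulfate proteoglycan of loose connective tissue, rose 6.43-fold (2.68 ± 0.17, SE, n = 2 pairs, limma adjusted p 0.0476), with 1 of its 8 probe sets lower. Prg4, lubricin, had ratios of 0.4 and 2.29 from control values of 3.63 and 3.79 below the medians.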

How the data were processed

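RNA of 2 SACC and 2 control samples was measured on 4 Affymetrix arrays. The authors deposited log2 expression values, in 1 table for each pair, which appear to be normalized separately. The submitters' processing notes name Transcriptome Analysis Console. Its version, the summarisation, the normalization and the build were not stated. The series value table held the same values (largest difference 0.0).

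Ratios were taken within a table. limma 3.58.1 (R 4.3.3) was fitted to all 45037 probe sets, with terms for group and pair and p-values adjusted by Benjamini-Hochberg, at a threshold of 0.05. The pairing comes from the control arrays' labels, and was not checked against the values, which 2 pairs do not allow. The fit had 1 residual degree of freedom and 2.97 prior ones, and each ± is limma's moderated standard error. The brightest probe set on average stood for a gene. Folds of 2 within a pair were counted without a test. The fit was tested on simulated data.

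The members and lists were chosen with earlier results of these data known. All members were named. Genes of other lists were drawn from those past the test (up to 4 a list) and the 2 with the largest mean ratio above an array median, though not all of these are named. Col1a1, Col3a1, Ptprc and Csf1r and all other measured family members were named in any case. Mmp13, Tlr2, Tlr4, Scx, Tnmd, Thbs4, Cspg4, Mcam, Msln, S100a8, Ngp and Srgn were added after their values were seen. So were Met, B3gnt2, Col5a3, Col12a1, Col14a1, Runx2, Pecam1, Tie1, Cdh5, Egfl7, Vwf, Cd79a and Cd3d. Alternatives were fits without the pair, other scalings, filters and moderation, other probe set rules and leaving out each array.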

Additional observations from a re-analysis of the deposited data

Results flagged for a closer look

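Prelp and Podn had ratios of opposite sign in the ES and plain pair, although Podn's plain ratio was only 0.06. Over all genes, 30.4% were higher and 34.7% lower in both pairs, and the rest had opposite signs or a ratio of 0. Subtracting the plain ratio from the ES ratio gave -1.91 for Prelp and -0.68 for Podn. With 1 array a group in each pair these differences were not tested.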

How the results depend on the processing

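The number of the 21 probe sets past the test was 0 and depended on the processing. It was 11 with quantile normalization over the 4 arrays, 12 with robust eBayes, 4 with eBayes with a trend, 4 of 18 with the dimmer probe sets removed, and 12 at an adjusted p of 0.10. Of the 10 genes, 3 passed with 1 probe set for each gene and 5 with a gene's probe sets averaged. No replicate block gave 0 of 21 in limma (8 at an unadjusted p under 0.05), as did each array centred on its median (15). Leaving out each array in turn, with the pair term dropped, gave 0 to 0 probe sets, and 5 to 10 at an unadjusted p under 0.05. Counts of genes at 2-fold stayed within 1.5 times of the main count under each alternative. With only probe sets with a plain _at name, an alternative chosen after seeing the data, 4 genes instead of 5 were at least 2-fold in both pairs. Leaving out each array in turn moved the mean ratio of Aspn between 0.69 and 3.14, of Ogn between 0.34 and 2.51, of Fmod between 0.4 and 2.38 and of Dcn between 0.83 and 1.94. It changed sign for Prelp (-1.19 to 0.36), Podn (-0.65 to 0.1) and Omd (-0.44 to 0.34), positive for all 3 without control replicate 1 and for Omd also without SACC replicate 2 (0.31). Omd was 0.02 with quantile normalization. For the changed counts and signs the cause was not tested.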
